A study of Rattus norvegicus with 12 samples.

Results

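The DNA methyltransferase genes Dnmt1 (ENSRNOG00000039859), Dnmt3a (ENSRNOG00000026649) and Dnmt3b (ENSRNOG00000010625) were followed in brain and testis of rats with and without a human DNMT3A transgene. They are 3 of the 25908 genes in the deposited table and were chosen by identifier, not by their values. The table itself carries no gene names, so the pairing of these identifiers with symbols was given with the choice of genes and could not be checked in the data. RNA came from 15-week-old adult male Sprague Dawley rats. The 4 groups were brain of transgenic rats (genotype hDNMT3A), brain of wild-type rats, testis of transgenic rats and testis of wild-type rats, with 3 libraries each. The promoter and copy number of the transgene, the number of founder lines and the brain region are not stated in the labels.

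DNA methyltransferases transfer a methyl group from S-adenosylmethionine to cytosine, in mammals mostly at CpG dinucleotides. Dnmt1 is the maintenance enzyme: it copies the methylation pattern onto the new strand after DNA replication. Dnmt3a and Dnmt3b are the de novo enzymes, which methylate sites that carried no mark on either strand. In rodents Dnmt3a is needed in male germ cells for paternal imprints and is abundant in neurons after birth, and Dnmt3b is best known from early embryos and from pericentromeric repeats. Mice and rats also carry Dnmt3c, a duplicate of Dnmt3b that is known from male germ cells of mice.

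Levels are given in FPKM, fragments scaled for the length of the gene and the size of the library. They can be compared between the genes only as far as the length used for each gene holds, which was not tested. FPKM is a share of the library, so it also moves when other transcripts take up more or less of it. The values could be turned back into whole reads, over 14004547 to 16112149 reads per library. The labels do not say that the replicates came from separate animals, so the spread between them may be technical. The identity of the tissues could not be checked on named markers, because the identifiers other than these 3 were not paired with names. In bulk tissue, fewer cells of a type and less RNA per cell cannot be told apart.

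The promoter windows of Dnmt1 and Dnmt3a are shown because CpG sites are what these enzymes act on. No window was available for Dnmt3b, so the windows cannot be set against the tissue levels of the genes. RefSeq sequences of build GRCr8 run from 250 bases before to 50 bases after a gene start, 5′ to 3′ on the strand of the gene, at chr8:27762792-27763091 on the minus strand for Dnmt1 and chr6:32598352-32598651 on the plus strand for Dnmt3a, where CpG sites are in capitals. The motif searched was CG, which reads the same on both strands.
Dnmt1: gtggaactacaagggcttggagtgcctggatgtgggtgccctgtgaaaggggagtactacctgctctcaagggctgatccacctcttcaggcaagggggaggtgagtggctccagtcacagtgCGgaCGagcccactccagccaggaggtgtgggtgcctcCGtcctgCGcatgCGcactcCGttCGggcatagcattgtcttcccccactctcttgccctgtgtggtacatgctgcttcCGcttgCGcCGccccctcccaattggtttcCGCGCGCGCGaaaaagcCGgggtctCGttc
Dnmt3a: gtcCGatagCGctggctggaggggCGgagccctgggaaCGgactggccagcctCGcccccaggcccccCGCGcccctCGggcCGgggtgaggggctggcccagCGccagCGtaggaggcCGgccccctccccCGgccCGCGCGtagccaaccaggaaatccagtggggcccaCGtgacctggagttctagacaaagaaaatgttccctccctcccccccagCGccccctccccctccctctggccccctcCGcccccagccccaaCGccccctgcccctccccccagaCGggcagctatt
The Dnmt1 window held 17 CpG sites and was 62.3% G or C, and the Dnmt3a window held 21 and was 74.3% G or C. Of 27457 rat promoter windows of the same length, 31.5% had at least 17 and 24.5% at least 21, and the median was 7. Methylation was not measured in the libraries used here, so these counts describe the sequence alone.

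In brain the order of the transcripts was Dnmt1, then Dnmt3a, then Dnmt3b far below. In testis Dnmt1 was again highest, while Dnmt3a and Dnmt3b stood at like levels. Dnmt1 and Dnmt3a were higher in brain than in testis and Dnmt3b was lower, in both genotypes. No difference between transgenic and wild-type rats passed the test for any of the 3 genes in either tissue.

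**Figure D1:**
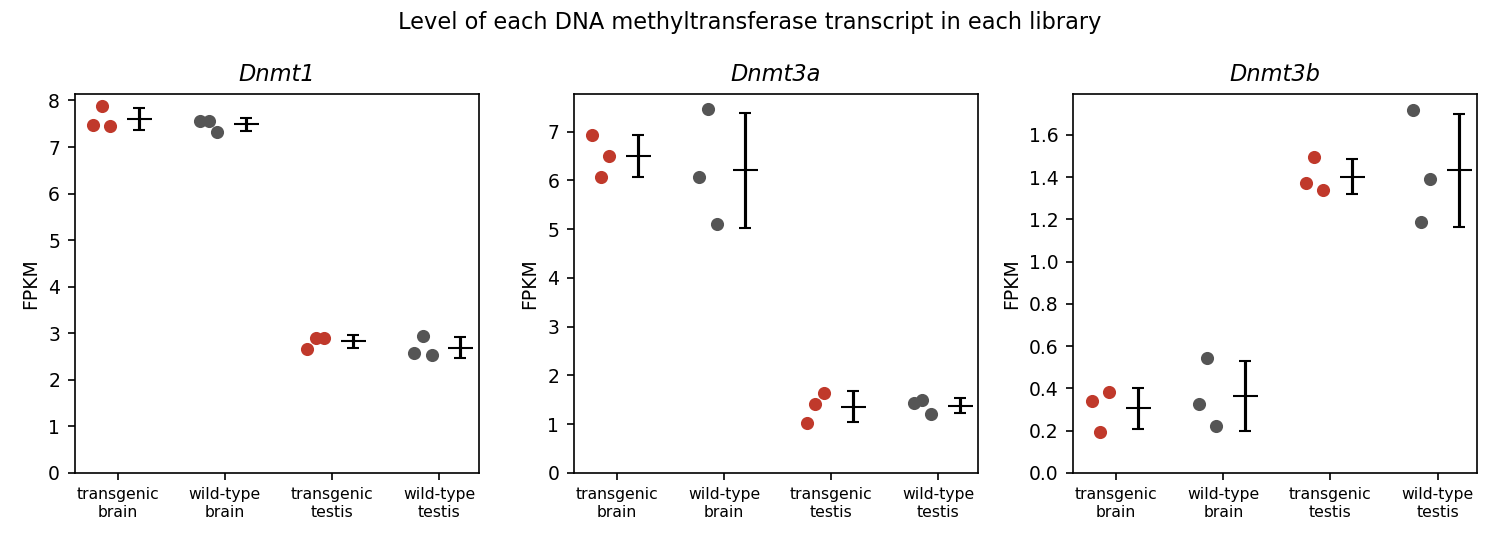
FPKM of Dnmt1, Dnmt3a and Dnmt3b, with 1 point per library (red, transgenic; grey, wild type) with the group's mean ± SD (n = 3) beside them. Brain and testis libraries do not overlap for any of the genes, while transgenic and wild-type points of the same tissue lie among each other.

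Dnmt1, the maintenance enzyme, had 7.46, 7.88 and 7.45 FPKM in transgenic brain, against 7.57, 7.57 and 7.32 FPKM in wild-type brain. Its testis values were 2.66, 2.91 and 2.91 FPKM in transgenic and 2.57, 2.94 and 2.54 FPKM in wild-type rats. All 6 brain libraries lay above all 6 testis libraries, and within a tissue the genotypes overlapped. These levels rest on 627 to 732 reads in a brain library and on 231 to 277 in a testis library. They placed Dnmt1 above 67.3% to 69.2% of all listed genes in brain and above 56.2% to 57.6% in testis.

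Mean Dnmt1 was 7.60 ± 0.243 FPKM in transgenic brain and 2.82 ± 0.144 FPKM in transgenic testis (SD, n = 3 each), a ratio of 2.69. In wild-type rats it was 7.49 ± 0.141 FPKM in brain and 2.68 ± 0.226 FPKM in testis (SD, n = 3 each), a ratio of 2.79. On log2(FPKM + 0.5), where low values are compressed, brain exceeded testis by 1.29 in transgenic rats (95% interval 1.06 to 1.51, limma adjusted p = 4.47e-06) and by 1.33 in wild-type rats (1.11 to 1.55, limma adjusted p = 1.03e-05). Most genes differ between these tissues: 89.1% of the genes tested were called in transgenic and 89.7% in wild-type rats, and 47.6% (transgenic) and 48.2% (wild type) of the genes tested were called higher in brain. Which direction held more calls depended on scaling, though these counts do not say how many genes changed direction. In transgenic brain 7666 genes were called higher and 6676 lower, but 6676 higher and 7578 lower with median-ratio scaling. In wild-type brain 7774 were called higher and 6688 lower, but 6755 higher and 7623 lower with that scaling. A call in this comparison is therefore common, and the Dnmt1 difference was larger in size than that of 36.9% and 37.6% of genes tested. The median gene lay 0.21 (transgenic) and 0.23 (wild type) toward brain. With each library scaled to its median ratio, the Dnmt1 difference was 0.91 in transgenic and 0.95 in wild-type rats.

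Dnmt1 had the lowest SD over mean of the 3 in each group, and also the most reads and so the smallest counting error. Its FPKM varied by 3.19% (SD over mean) in transgenic brain and 1.89% in wild-type brain, no more than the 3.80% and 3.91% that read counting alone would give. In testis the variation was 5.09% in transgenic and 8.43% in wild-type rats, beside a counting error of 6.25% and 6.43%. Set beside counting error the order differed in testis. Dnmt3b varied by 5.90% in transgenic testis (counting error 11.9%) and Dnmt3a by 10.7% in wild-type testis (10.5%). In brain Dnmt3a and Dnmt3b both varied by more than their counting error.

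Genotype did not separate Dnmt1. Transgenic brain minus wild-type brain was 0.02 on the log2 scale (95% interval -0.17 to 0.21, limma adjusted p = 0.982). In testis the difference was 0.06 (-0.23 to 0.36, limma adjusted p = 0.897). The intervals reach from 0.887-fold to 1.16-fold in brain and from 0.852-fold to 1.28-fold in testis on FPKM + 0.5. Changes within those limits are not excluded.

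Dnmt3a, the rat gene for the enzyme that the transgene also encodes, had 6.93, 6.06 and 6.50 FPKM in transgenic brain, against 6.06, 7.46 and 5.10 FPKM in wild-type brain. The highest and the lowest brain library were both wild type, and the transgenic values lay between them. In testis it had 1.02, 1.41 and 1.64 FPKM in transgenic rats, against 1.44, 1.49 and 1.21 FPKM in wild-type rats. Here the highest and the lowest library were both transgenic. A brain library held 333 to 453 reads of Dnmt3a and a testis library 66 to 113. Dnmt3a lay above 63.1% to 67.1% of listed genes in brain and above 43.9% to 50.6% in testis.

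The genotypes did not differ in Dnmt3a beyond the spread between libraries. Its mean was 6.50 ± 0.436 FPKM in transgenic and 6.21 ± 1.18 FPKM in wild-type brain (SD, n = 3 each), a difference of 0.07 on the log2 scale (95% interval -0.26 to 0.41, limma adjusted p = 0.960). In testis the means were 1.36 ± 0.311 FPKM in transgenic and 1.38 ± 0.147 FPKM in wild-type rats (SD, n = 3 each), a difference of -0.03 (-0.48 to 0.43, limma adjusted p = 0.972). The intervals reach from 0.836-fold to 1.33-fold in brain and from 0.715-fold to 1.34-fold in testis. All 25908 rows carry rat identifiers, so none carries a human identifier for DNMT3A. Whether reads of the human transgene fell on rat Dnmt3a was not tested, and reads of the 2 genes cannot be told apart within this row. The row therefore neither checks the genotype labels nor measures the transgene.

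Across tissues Dnmt3a had a larger ratio than Dnmt1. Its mean FPKM in brain was 4.79 times that in testis in transgenic rats and 4.50 times in wild-type rats. Brain exceeded testis by 1.93 on the log2 scale in transgenic rats (95% interval 1.57 to 2.28, limma adjusted p = 6.22e-06) and by 1.82 in wild-type rats (1.45 to 2.20, limma adjusted p = 2.92e-05). The size of the difference was above that of 51.7% of genes tested in transgenic and 49.0% in wild-type rats, close to the middle of all genes. Scaled to the median ratio of each library it was 1.58 in transgenic and 1.47 in wild-type rats.

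Dnmt3b, the other de novo enzyme, ran the other way. It had 0.339, 0.194 and 0.381 FPKM in transgenic brain, against 0.324, 0.543 and 0.220 FPKM in wild-type brain. In testis it had 1.37, 1.50 and 1.34 FPKM in transgenic and 1.72, 1.19 and 1.39 FPKM in wild-type rats. Every testis library lay above every brain library, and within each tissue the genotypes overlapped. The brain level rests on only 10 to 25 reads per library, 46 over the transgenic and 52 over the wild-type brain libraries, while testis libraries held 57 to 86 reads. How reads shared with Dnmt3c were counted is not stated, so the split between the duplicates, and with it the testis level of Dnmt3b, is uncertain. For the brain library with the fewest reads, 10 in transgenic replicate 2, the exact 95% Poisson interval was 4.80 to 18.4 reads, or 0.0928 to 0.356 FPKM, which covers counting error only. Even the highest brain library, wild-type replicate 2 with 25 reads, had an upper limit of 0.801 FPKM, below the lowest testis value.

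Mean Dnmt3b was 0.304 ± 0.0983 FPKM in transgenic brain and 1.40 ± 0.0827 FPKM in transgenic testis (SD, n = 3 each), so testis was 4.60 times higher. In wild-type rats it was 0.362 ± 0.165 FPKM in brain and 1.43 ± 0.268 FPKM in testis (SD, n = 3 each), and testis was 3.95 times higher. Its mean over both tissues was under the filter of 1 FPKM, so the fits with the filter did not test it. Permuting the 3 brain and 3 testis libraries within a genotype gave p = 0.1 (exact, two-sided), the smallest value such a test can reach. Without the filter, brain minus testis was -1.25 on the log2 scale in transgenic rats (95% interval -1.60 to -0.90, limma adjusted p = 0.000225) and -1.17 in wild-type rats (-1.64 to -0.71, limma adjusted p = 0.0015). In these fits 34.5% of genes were called lower in brain in transgenic and 34.9% in wild-type rats. The added 0.5 FPKM compresses this low gene: on recovered reads with limma's voom the differences were -2.22 in transgenic and -2.04 in wild-type rats. Scaling to the median ratio gave -1.47 and -1.41.

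Wild-type brain replicate 2, the library with most Dnmt3b, also held more testis transcripts than the others. A set of 203 genes, with a testis mean of 100 FPKM or more and a brain median no higher than 0.5 FPKM, stood there at 1.59% of their testis level, against 0.0511% to 0.330% in the other 5 brain libraries. The same share of the testis level of Dnmt3b is 0.0226 FPKM, beside the 0.543 FPKM measured in that library. For Dnmt3a it is 0.0218 FPKM and for Dnmt1 0.0439 FPKM, beside 7.46 and 7.57 FPKM measured. Without this library wild-type brain minus testis was -1.32 for Dnmt3b. Transgenic minus wild-type brain on the log2 scale was then 0.205 for Dnmt3a, against 0.074 with it. For Dnmt3b it was 0.055, against -0.090, and for Dnmt1 0.027, against 0.020. The same library had the fewest reads, 14004547, and 14390 genes at 1 FPKM or more. The other brain libraries had 13573 to 13733 such genes, and why this library differed was not tested.

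Genotype did not separate Dnmt3b either. Transgenic minus wild-type brain was -0.09 on the log2 scale (exact permutation p = 0.7). The fit without the filter gave a 95% interval of -0.55 to 0.37 (limma adjusted p = 0.932). In testis, where the gene passed the filter, the difference was -0.01 (-0.43 to 0.40, limma adjusted p = 0.984). With 10 to 25 reads per brain library, counting alone gives an error of 25.5% in transgenic and 24.0% in wild-type brain, beside a measured variation of 32.3% and 45.5%.

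**Figure D2:**
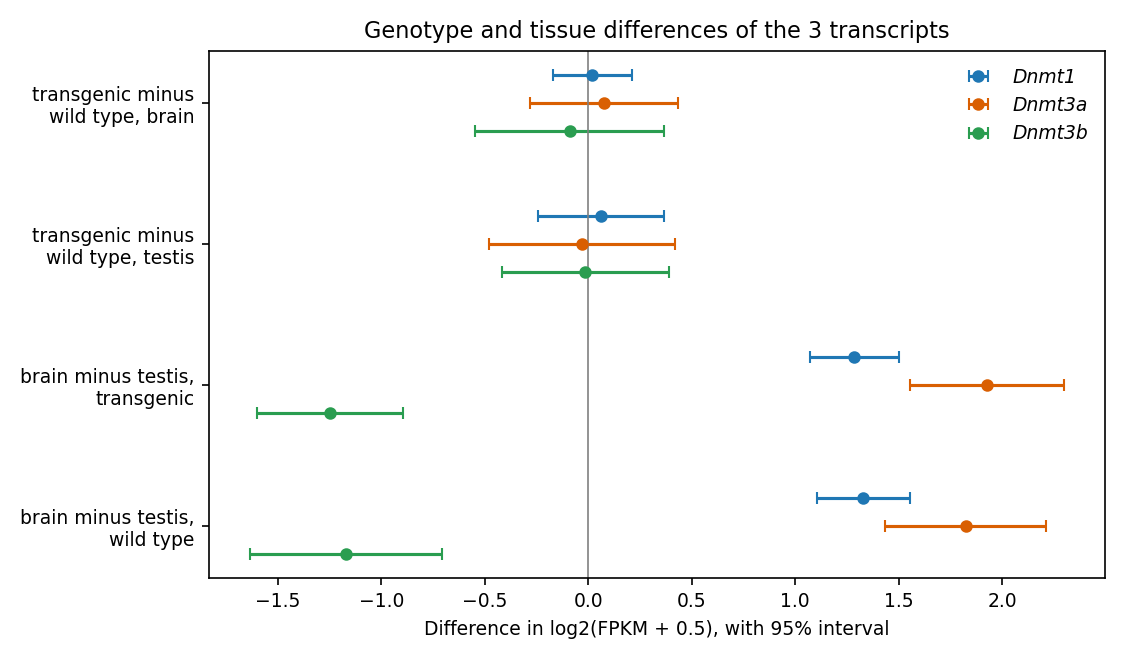
Differences of the 3 genes in log2(FPKM + 0.5) with 95% intervals from limma without a filter on low genes, for transgenic minus wild type in each tissue and for brain minus testis in each genotype. The genotype intervals all cross 0; the tissue intervals lie above 0 for Dnmt1 and Dnmt3a and below 0 for Dnmt3b.

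Set against all genes, 0 of the 2 members tested in brain and 0 of the 3 tested in testis were called between genotypes, and none had an unadjusted limma p under 0.05. The share of all tested genes called was 0.116% in brain with the filter, 0.0578% in brain without it and 0.576% in testis. Calls were thus rare in the whole table, and a count of 0 among 3 genes says little beside that. In brain, 11.8% of genes tested had a smaller difference than Dnmt1 and 40.5% a smaller one than Dnmt3a. In testis the shares were 32.1% for Dnmt1, 15.0% for Dnmt3a and 7.4% for Dnmt3b. Each of these 5 values was smaller than that of most genes tested.

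**Figure D3:**
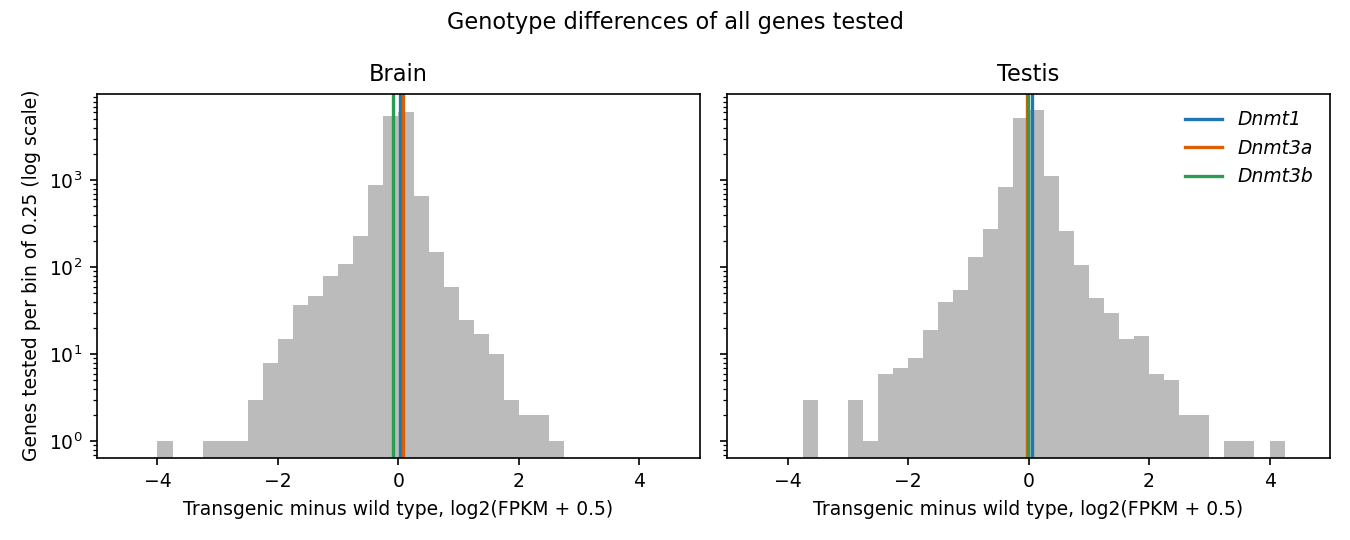
Number of genes (log scale) by transgenic minus wild-type difference in log2(FPKM + 0.5), in brain (left) and testis (right), in bins of 0.25, with vertical lines at the values of Dnmt1, Dnmt3a and Dnmt3b. The lines lie between -0.09 and 0.07 in the centre of both distributions; Dnmt3b in brain is drawn although it was not among the genes tested there.

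Pooling the tissues did not change this. With genotype permuted within tissue (400 arrangements, exact, two-sided, smallest possible p 0.005), transgenic minus wild type was 0.04 for Dnmt1 (p = 0.23), 0.02 for Dnmt3a (p = 0.845) and -0.05 for Dnmt3b (p = 0.615). Adjusted over the 6 tests of this kind these are 0.345, 0.845 and 0.738. With tissue permuted within genotype, p was 0.005 for each gene, the smallest possible (adjusted p = 0.01 in the exact permutation tests), for differences of 1.31, 1.87 and -1.21. These tests were added to those planned. They take the libraries as independent, which the labels do not state for brain and testis samples of the same number.

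The genotype difference was also compared between tissues. Brain minus testis of the genotype difference was -0.04 for Dnmt1 (95% interval -0.31 to 0.22, limma adjusted p = 0.979) and 0.10 for Dnmt3a (-0.39 to 0.59, limma adjusted p = 0.968), where 0.421% of genes tested were called. For Dnmt3b, which needed the fit without the filter, it was -0.08 (-0.60 to 0.45, limma adjusted p = 0.955), where 0.398% were called. None of the 3 had an unadjusted limma p under 0.05.

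**Figure D4:**
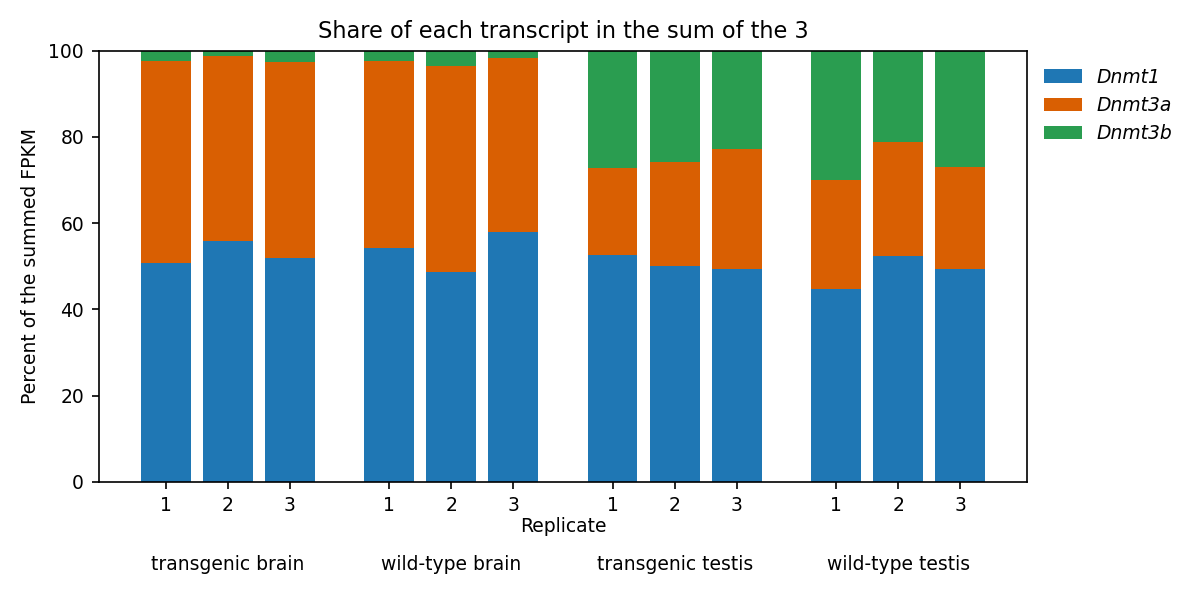
Share of Dnmt1, Dnmt3a and Dnmt3b in their summed FPKM, with 1 bar per library. Dnmt3b makes up 1.37% to 3.49% of a brain bar and 21.1% to 30.0% of a testis bar, while Dnmt1 stays between 44.8% and 57.9% in all 12.

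The balance between the enzymes showed the tissue difference within each library, where the scaling of the library cancels. Dnmt1 made up 52.8% ± 2.64 of the summed FPKM of the 3 genes in transgenic brain and 53.6% ± 4.68 in wild-type brain, against 50.7% ± 1.72 in transgenic testis and 48.9% ± 3.81 in wild-type testis (SD, n = 3 each). The tissue ranges of its share overlapped. Dnmt3a made up 45.1% ± 2.10 in transgenic and 43.9% ± 3.80 in wild-type brain, but 24.1% ± 3.80 in transgenic and 25.1% ± 1.45 in wild-type testis. Dnmt3b made up 2.11% ± 0.664 in transgenic and 2.52% ± 0.889 in wild-type brain, and 25.2% ± 2.23 in transgenic and 26.1% ± 4.51 in wild-type testis.

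Dnmt1 was 1.01 to 1.43 times Dnmt3a in the 6 brain libraries and 1.78 to 2.60 times Dnmt3a in the 6 testis libraries. In brain Dnmt3a was 13.8 to 31.3 times Dnmt3b, while in testis their ratio ran from 0.744 to 1.25 and Dnmt3a was the higher in 2 of 6 libraries. Exact sign-flip permutation tests over the 6 libraries of a tissue gave p = 0.0312, the smallest possible, for the first 3 of these orders (adjusted over 4 tests, 0.0417). Dnmt3a and Dnmt3b in testis did not differ beyond their spread (exact permutation p = 0.656). These tests were not among those planned, and the pairs were neighbours in the order seen. The tests cover the spread between libraries, not an error in the length used for a gene, which all libraries share. The small lead of Dnmt1 over Dnmt3a in brain is the order most open to such an error. In wild-type brain replicate 2 the ratio of Dnmt1 to Dnmt3a was 1.01, so that neighbouring pair was nearly level there.

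The log2 ratio of Dnmt3a to Dnmt1, computed with 0.5 FPKM added to each, was -0.24 ± 0.171 in brain and -0.81 ± 0.142 in testis (SD, n = 6 each). Tissue permuted within genotype gave a difference of 0.57 with p = 0.005, the smallest possible (adjusted over 6 tests, 0.015, exact permutation). The log2 ratio of Dnmt3a to Dnmt3b was 3.04 ± 0.122 in brain and -0.04 ± 0.220 in testis (SD, n = 6 each), a difference of 3.08 with the same p of 0.005 (adjusted p = 0.015, exact permutation). The brain and testis values of each ratio did not overlap.

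Genotype did not shift these ratios detectably. For Dnmt3a to Dnmt1 the means were -0.21 ± 0.129 in transgenic and -0.27 ± 0.232 in wild-type brain (exact permutation p = 0.8), and -0.85 ± 0.191 in transgenic and -0.76 ± 0.089 in wild-type testis (p = 0.4; SD, n = 3 each). For Dnmt3a to Dnmt3b they were 3.13 ± 0.126 in transgenic and 2.96 ± 0.030 in wild-type brain (exact permutation p = 0.2), and -0.05 ± 0.257 in transgenic and -0.03 ± 0.234 in wild-type testis (p = 0.9). With 3 libraries against 3 these tests cannot go below 0.1. The added 0.5 FPKM compresses the spread of Dnmt3a to Dnmt3b in brain. Plain FPKM ratios there were 18.7, 13.8 and 23.2 in the wild-type libraries and 20.4, 31.3 and 17.1 in the transgenic ones.

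Within a tissue the genes were also set against each other over its 6 libraries, as a choice made after the values were seen. In brain Dnmt3a and Dnmt3b were both highest in wild-type replicate 2. Their Pearson r was 0.82 (exact permutation p = 0.0486) and Spearman rho 0.89 (exact permutation p = 0.0333). Over the 6 relations examined the adjusted p was 0.292 for r and 0.2 for rho, and r was 0.58 without the 2 libraries farthest from the median of Dnmt3a, so the relation did not pass the correction. The other 5 relations had r between -0.55 and 0.59 and exact permutation p for r of at least 0.263. Some moved with few libraries: without the 2 farthest ones, r became 0.94 for Dnmt1 and Dnmt3a in testis, where it had been 0.59, and 0.38 for Dnmt1 and Dnmt3b in brain, where it had been -0.21.

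Genes with the most similar shape of profile were looked up by Pearson correlation over the 12 libraries on log2(FPKM + 0.5), among genes that averaged 1 FPKM or more. Pearson r does not compare the size of a difference. The nearest gene was ENSRNOG00000004310 for Dnmt1 (r = 0.9986), ENSRNOG00000003100 for Dnmt3a (r = 0.9968) and ENSRNOG00000060838 for Dnmt3b (r = 0.9922), and the table gives no name for them. Such values are common, because 6 libraries are brain and 6 are testis: 36.3% of genes had r over 0.95 with Dnmt1, 34.2% with Dnmt3a and 26.3% with Dnmt3b. In size, brain minus testis on the log2 scale was 3.257 for ENSRNOG00000004310, against 1.307 for Dnmt1. For ENSRNOG00000060838 it was -3.480, against -1.210 for Dnmt3b, and for ENSRNOG00000003100 it was 2.112, against 1.875 for Dnmt3a. ENSRNOG00000003100 had 5.24 ± 0.526 FPKM in transgenic brain and 5.02 ± 1.22 FPKM in wild-type brain. Its testis values were 0.755 ± 0.330 FPKM in transgenic and 0.856 ± 0.0658 FPKM in wild-type rats (SD, n = 3 each). The wider brain spread in wild type, as for Dnmt3a, is favoured by a choice through correlation over these libraries and adds no support.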

How the data were processed

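RNA of 12 libraries was taken up in Trizol and built into libraries with the Illumina TruSeq RNA kit, per the labels' protocols. The authors deposited 1 table of FPKM values. The submitters' processing notes list Bowtie 1.0.1 and Rnor_6.0; no source used here states the annotation, the counter, its use of strand or its handling of multi-mapping reads. Whole reads were recovered from the FPKM steps, within 0.002 reads, for 100% of genes; recovered lengths were 5917 bp for Dnmt1, 4289 bp for Dnmt3a and 3290 bp for Dnmt3b. Between libraries of 1 group the chi-square averaged 4.53 to 13.4 per gene, so none looked like a library deposited again; this does not show that they came from separate animals. The 4 groups of 3 were compared in 5 fits with limma 3.58.1 (R 4.3.3) across all genes, with an intensity trend, on log2(FPKM + 0.5), for genes averaging 1 FPKM or more (for the interaction, in each tissue). Calls were made where the Benjamini-Hochberg adjusted p was under 0.05. The fits were tested on simulated data. Single values were compared with exact permutation tests. Those of genotype, tissue and ratios ran in R, and those of order and correlation in Python 3.11.15 (scipy 1.17.1).

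The members, lists and tests were chosen with earlier results of these data known. Besides the 3 members, the gene with the highest correlation with each was named. A list of other DNA methylation genes and tissue markers was not run, since 0 of 25908 identifiers matched the reference names. Alternatives changed the pseudocount, filter, scaling, trend, weights, libraries fitted and replicate block, used voom on the reads, or left out each library.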

Additional observations from a re-analysis of the deposited data

How the results depend on the processing

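Tissue calls of Dnmt1 and Dnmt3a held in all 15 alternatives of each fit, with differences of 0.91 to 1.48 and 1.47 to 2.27 on the log2 scale. Genotype and interaction values that limma tested were called in no alternative. For Dnmt3b in brain and in the interaction, most alternatives had no test or a permutation test that could not reach 0.05, so these say nothing of stability. The sign held for Dnmt1 in testis and in the interaction and changed in at least 1 alternative for the other 7 values. Dnmt3a in brain, for example, ran from -0.05 (without wild-type brain replicate 3) to 0.21 (without wild-type brain replicate 2, the library with more testis transcripts). The 2 tissue ratio comparisons kept their calls, while the 4 genotype ones could not reach 0.05 under any setting. The tissue difference of Dnmt3a to Dnmt3b ran from 2.49 (1 FPKM added) to 3.99 (0.1 FPKM added).

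Dnmt3b between tissues, brain minus testis, was called once the filter was dropped: -1.25 in transgenic and -1.17 in wild-type rats, the same with all 12 libraries in 1 fit or a replicate block, and -2.22 in transgenic and -2.04 in wild-type rats with voom. The last 3 were chosen after seeing the data. In wild type it ran from -1.32 to -1.05 without single libraries. Without wild-type brain replicate 1 or 3 it was called, but it passed the filter there through its testis level, which is no added support.

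Genes called between genotypes in brain, 16, numbered 7 with 0.1 FPKM added, 57 with all 12 libraries in 1 fit and 2 to 8 without single libraries. In testis, 84 became 196 with array weights, 247 with all 12 libraries, 190 with voom and 20 to 80 without single libraries. Interaction calls, 46, became 103 without the filter, 87 with array weights and 25 to 44 without single libraries.

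With the replicate block limma called 0 genes in brain (742 at an unadjusted p under 0.05), 39 in testis and 1 in the interaction, and it changed no call of Dnmt1 or Dnmt3a. The sample codes repeat a number across tissues and genotypes. Across genotypes it cannot mark 1 animal, and across tissues the labels do not say whether it does. In the genotype fits of brain and of testis the block joined same-numbered libraries of different genotypes, so there it was no pairing by animal. Deviations of same-numbered samples correlated at -0.02 to 0.11 between brain and testis of a genotype, and at -0.25 to 0.11 between genotypes. Over both kinds together, 12 of 24 comparisons had the same number as best match, where chance gives 8. Pooled in this way the lookup cannot settle whether a number marks 1 animal across tissues. The samples were not treated as paired in the main fits. In testis, 57 to 113 reads per library limit Dnmt3a and Dnmt3b.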
